A study of Rattus norvegicus with 6 samples.

Results

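Axon guidance ligands and receptors were examined on arrays of 3 cultured populations of olfactory ensheathing cells (OECs) of the rat, which are glia that wrap olfactory axons on their way into the brain. The genes were those with a single annotated symbol beginning with Sema, Plxn, Efna, Efnb, Epha, Ephb, Slit and a digit, Robo, Ntn or Unc5, with Nrp1, Nrp2, Dcc, Rgma, Rgmb, Rtn4 and Rtn4r added. They came to 63 of the 14371 genes with a single symbol on the arrays. TEG3 was 1 clonal line, made by transfecting OECs of rats 60 days old with a plasmid for SV40 large T antigen, with the number of its doublings not given in the sources used here. OEC Lp was a primary culture from the olfactory nerve layer, carried past 50 population doublings, and OEC Ep a primary culture of the same layer kept for 1 week, with less than 3 doublings, both from rats 21 days old. All 3 came from Wistar rats and grew in one medium, DMEM supplemented with 2 µM forskolin, 20 µg/ml of pituitary extract and 3% serum, and an OEC purity over 90% is stated for OEC Lp and OEC Ep. Total RNA of each population was hybridised to 1 Affymetrix U34A array and 1 RAE2.0 array, so 6 arrays in all, and this number limits the precision. The design text gives 2 RNA pools per population, each of 3 cultures (in OEC Ep, 1 rat per culture), but names U34A alone and does not say which pool went on which array. The p-values therefore measure the spread between the array types, which may be technical.

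Guidance cues act on the growth cone, the moving tip of an axon, and most can either repel or attract it. Class 3 semaphorins are secreted and bind neuropilins, which signal through plexins, while the other semaphorins used here are membrane proteins that bind plexins directly. Ephrins are surface ligands of the Eph receptor kinases, Slits are secreted ligands of Robo receptors, netrins are read by Dcc and Unc5 receptors, and RGM proteins and Nogo (Rtn4) limit axon growth. OECs are studied as grafts for axon repair, and OECs and their neighbours in the olfactory nerve are known to make several of these cues.

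Of the 63 genes, all were on RAE2.0 and 22 also on U34A. A signal was treated as measured above a floor, the 40th percentile of all signals of an array type, which was 168 on RAE2.0 and 128 on U34A. On at least 1 array, 53 genes passed this floor on RAE2.0, and 11 passed on both types. Another 2, the Eph receptor genes Epha7 and Ephb1, passed on U34A alone, with highest signals of 197 and 170. The remaining 8 genes passed nowhere: Dcc, the netrin receptor, Unc5a, Ntn5, Epha5, Epha8, Epha10, Plxnc1 and Sema4d. The 11 genes on both types were tested with limma, which compares the population difference with the disagreement of the array types. The other 42 have 1 array per population on RAE2.0 and are described by their signals, with no replicate check. Where the lower population sat at the floor, the fold is a bound ("at least"). On RAE2.0, 7 of the 53 genes were above the floor in 1 population alone, so that a difference was built into their selection. Among the 11 genes, the same held on U34A for Sema3a (OEC Lp alone), Ephb3 and Sema4b (TEG3 alone) and Robo2 (OEC Ep alone).

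The sequence upstream of the start site is shown for 4 genes, a pair lower (Sema6d and Sema3g) and a pair higher (Sema3d and Efna1) in both TEG3 and OEC Lp than in OEC Ep on RAE2.0. The windows run from 250 bases before to 50 after the start in RefSeq's GRCr8 assembly, which gave one for 48 of the 63 genes. They were searched on both strands for ACAAAG, the core bound by SOX factors, for the GC box GGGCGG, the TATA box TATAAA and the E-box CACGTG, and the matches are in capitals. GC boxes in Sema6d and Efna1 overlap each other.
Sema6d, chr3:132337106-132337405, plus strand: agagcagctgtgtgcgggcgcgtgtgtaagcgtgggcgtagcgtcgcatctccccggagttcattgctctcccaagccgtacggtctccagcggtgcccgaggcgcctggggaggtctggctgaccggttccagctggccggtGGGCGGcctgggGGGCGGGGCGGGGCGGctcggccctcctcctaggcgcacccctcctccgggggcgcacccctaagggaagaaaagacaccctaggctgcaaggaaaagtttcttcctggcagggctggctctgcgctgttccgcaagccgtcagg
Sema3g, chr16:6419775-6420074, plus strand: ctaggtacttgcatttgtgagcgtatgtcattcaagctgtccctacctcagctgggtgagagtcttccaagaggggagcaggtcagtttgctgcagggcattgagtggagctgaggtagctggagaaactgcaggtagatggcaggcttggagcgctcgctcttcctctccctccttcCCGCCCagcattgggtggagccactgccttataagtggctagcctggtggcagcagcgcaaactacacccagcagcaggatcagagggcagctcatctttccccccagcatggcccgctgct
Sema3d, chr4:23460922-23461221, minus strand: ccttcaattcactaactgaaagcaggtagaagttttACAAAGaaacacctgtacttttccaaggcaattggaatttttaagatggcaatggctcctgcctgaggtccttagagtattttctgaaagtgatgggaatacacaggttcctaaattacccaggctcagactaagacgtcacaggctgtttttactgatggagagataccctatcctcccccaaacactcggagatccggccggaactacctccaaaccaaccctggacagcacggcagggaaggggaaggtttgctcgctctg
Efna1, chr2:176986772-176987071, minus strand: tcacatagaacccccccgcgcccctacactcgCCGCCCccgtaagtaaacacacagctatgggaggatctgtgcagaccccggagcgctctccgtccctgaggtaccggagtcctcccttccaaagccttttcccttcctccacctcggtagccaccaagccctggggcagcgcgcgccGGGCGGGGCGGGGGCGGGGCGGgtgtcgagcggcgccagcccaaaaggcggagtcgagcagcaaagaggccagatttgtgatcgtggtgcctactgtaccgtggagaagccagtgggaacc
Sema6d held 4 GC boxes and Efna1 5, while Sema3g held 1 and Sema3d none. Sema3d held the only SOX core of the 4, starting 214 bases before the start. Among the 48 windows of guidance genes, 60.4% held a GC box, 12.5% a SOX core, 8.33% an E-box and 0 a TATA box, against 33.1%, 18.8%, 6.42% and 14.2% of all 33469 windows in the table. A match describes the letters alone.

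The labelled cell type was checked against lists of marker genes. Of 10 OEC and Schwann cell markers, 8 were on RAE2.0. Above the floor there were 2 in TEG3, 1 in OEC Lp and 8 in OEC Ep. Their summed levels were 1576, 1350 and 87093. In all sums of this paragraph a gene at the floor was counted at the floor value, 168 on RAE2.0. A sum that includes such genes is therefore an upper limit. In TEG3 and OEC Lp the RAE2.0 sums of the OEC, microglia and neuron lists were made up largely of floor values. On U34A the sums over 7 markers were 5090, 3736 and 32617 in the same order. Most of the TEG3 and OEC Lp sums there was Ngfr, with levels of 3621 and 2569, against 12716 in OEC Ep. On RAE2.0 Ngfr was at the floor in TEG3 and OEC Lp, against 12522 in OEC Ep, so the array types disagreed on this marker. Sox10, the transcription factor of neural crest glia, had a level of 233 in TEG3 and was at the floor in OEC Lp, against 5743 in OEC Ep on RAE2.0, and S100b and Gfap were at the floor in TEG3 and OEC Lp. Microglia and macrophage markers summed to 1532 in TEG3 and 1617 in OEC Lp, against 38751 in OEC Ep over 9 genes on RAE2.0, of which 2, 1 and 9 were above the floor, and neuron markers to 1261 and 920, against 30651. Over the 6 measured on U34A the microglia sums were 1062, 986 and 21823, and over 3 neuron markers 451, 409 and 17676. Most of the microglia sums in OEC Ep was Lyz2, with levels of 27306 on RAE2.0 and 17264.5 on U34A. At least 2-fold lower than in OEC Ep were 9 of 9 microglia markers on RAE2.0 in both TEG3 and OEC Lp. On U34A 5 of 6 were in TEG3 and 3 of 6 in OEC Lp. Fibroblast and meningeal markers summed to 37425, 95939 and 113433 on RAE2.0, but the 7 genes went different ways. In OEC Lp 4 were at least 2-fold lower and 2 higher than in OEC Ep. Postn had levels of 394 in OEC Lp and 56582 in OEC Ep, and Thy1 was at the floor against 2060, both at the floor in TEG3. Col3a1 instead had 78964 in OEC Lp, against 21808 in OEC Ep. Endothelial markers summed to 529, 1443 and 559, oligodendrocyte markers to 469, 336 and 702, and astrocyte markers to 6306, 63922 and 8541. The astrocyte sum was mostly Gja1 (5004, 63164 and 5649), whereas Aldoc had levels of 413 in TEG3 and 168, the floor, in OEC Lp, against 1174 in OEC Ep, and Slc1a3 had 542 and 174, against 1370. The neuron sum in OEC Ep was mostly the neurofilament genes Nefl and Nefm (9367 and 20209), while Tubb3 had 588 in TEG3 and was at the floor in OEC Lp, against 666 in OEC Ep. The OEC list, the microglia list by its sums, the neurofilament genes, Postn and Thy1 were thus far higher in OEC Ep, as were several guidance genes below. Their part in those differences was not tested, and in RNA of whole cultures, fewer cells of a type and less RNA per cell cannot be told apart.

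Among the genes on both types, limma called the ephrin Efna1 in 2 of 3 comparisons and no other gene. In OEC Lp against OEC Ep, 1 of 11 genes was called, beside 6.13% of all 3131 genes on both types. It was called as higher, as were 2.11% of all genes, and 0 were called as lower, beside 4.02%. The TEG3 culture set against OEC Ep again gave 1 of 11, beside 4.34%, with 1 higher, beside 0.639%, and 0 lower, beside 3.70%. Between TEG3 and OEC Lp limma called 0 of 11, beside 1.21% (0.192% higher and 1.02% lower), and 1 gene, Unc5b, had an unadjusted p under 0.05. The median log2 ratio of the 11 genes was 0.06 in OEC Lp over OEC Ep (0.11 over all genes), 0.18 in TEG3 over OEC Ep (0.04) and -0.05 in TEG3 over OEC Lp (-0.01). The comparisons share arrays and are therefore not independent.

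A simpler count asks for at least a 2-fold ratio in one direction on both array types. In OEC Lp over OEC Ep, Efna1 and Sema3a were higher by this count, 2 of 11 beside 4.09% of all genes, and 0 were lower, beside 6.83%. Sema3a passed the U34A floor in OEC Lp alone, so its difference on U34A was built into its selection and is no independent support. For TEG3 over OEC Ep, Efna1 alone was higher, 1 of 11 beside 3.96%, and 0 were lower, beside 8.14%. For TEG3 over OEC Lp, 0 were higher and 0 lower, beside 2.59% and 4.92%. The array types gave the same sign for 6 of the 11 genes in each comparison with OEC Ep and for 7 in TEG3 over OEC Lp.

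**Figure D1:**
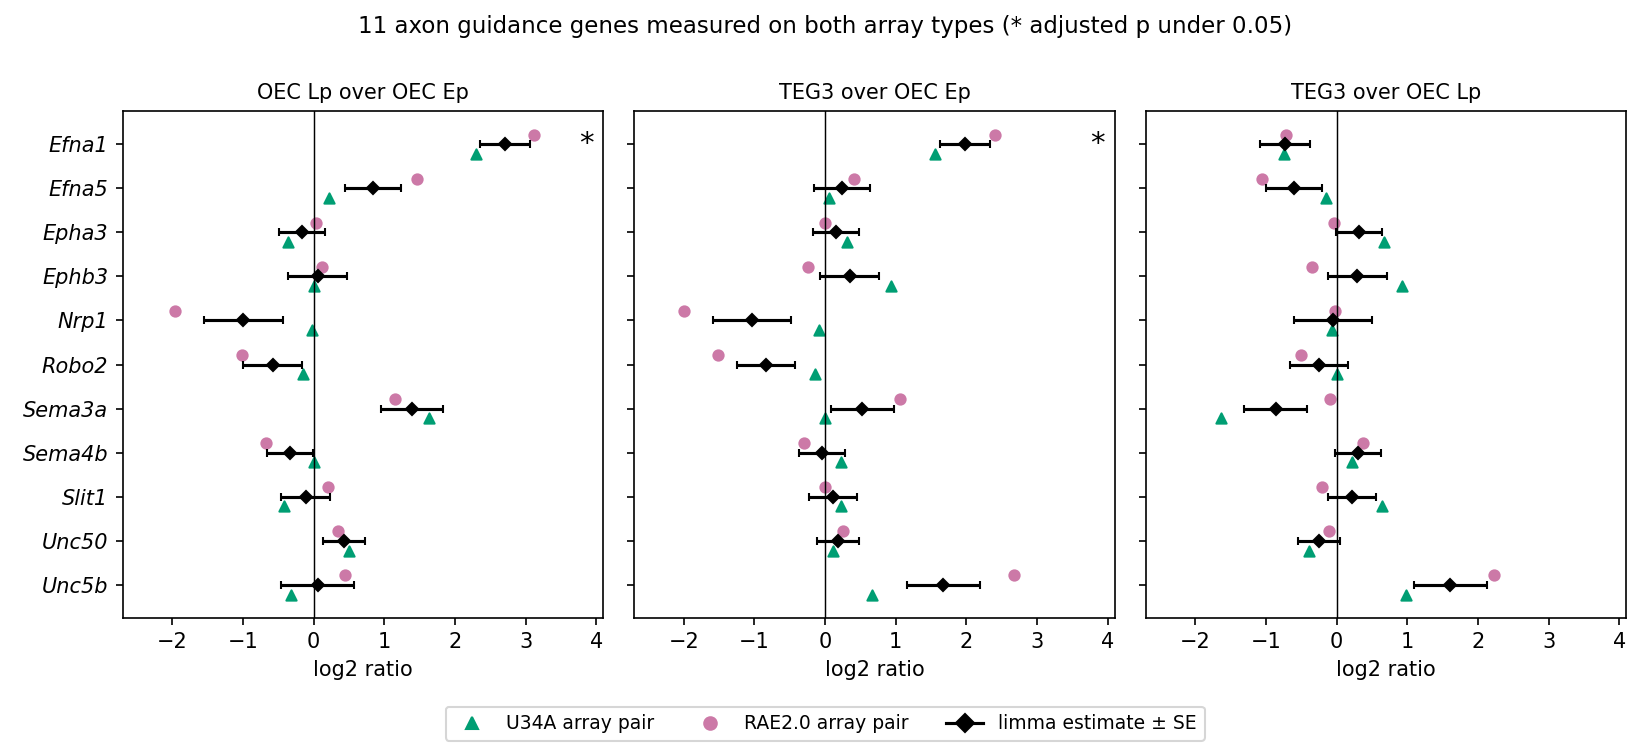
log2 ratios of the 11 axon guidance genes on both array types (rows) in 3 comparisons (panels). Triangles are the ratio on U34A, circles the ratio on RAE2.0 and diamonds the limma estimate with its standard error. Efna1, marked with an asterisk in 2 panels, has ratios of 2.30 and 3.11 in OEC Lp over OEC Ep, while Nrp1 has -0.02 on U34A and -1.97 on RAE2.0.

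Efna1 codes for ephrin-A1, a ligand of EphA receptors that is tethered to the membrane by a lipid anchor. Its 2 RAE2.0 probe sets had signals of 799 and 983 in TEG3, 1483 and 1424 in OEC Lp, and 77 and 165 in OEC Ep. On U34A they were 216 and 683 in TEG3, 350 and 1183 in OEC Lp, and 29 and 133 in OEC Ep. Its upstream window above held 5 GC boxes. All 4 probe sets gave the same order, OEC Lp above TEG3 above OEC Ep, and 3 of the 4 were at the floor in OEC Ep. Efna1 rose in OEC Lp over OEC Ep by a fitted 6.53-fold (log2 fold 2.71 ± 0.352 SE, limma adjusted p = 0.0162), as the mean of log2 ratios of 2.30 on U34A and 3.11 on RAE2.0. It also rose by a fitted 3.94-fold in TEG3 over OEC Ep (log2 fold 1.98 ± 0.352, adjusted p = 0.0446). TEG3 over OEC Lp gave a log2 fold of -0.73 with a 95% interval of -1.61 to 0.15 (limma adjusted p = 0.412). Neither call held when any of the 6 arrays was left out. Such a fit leaves 1 array in a population, and most calls over all genes were lost too, so the loss is not particular to Efna1. The log2 folds of Efna1 in these fits ran from 2.29 to 3.12 for OEC Lp and from 1.56 to 2.39 for TEG3.

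The other 4 ephrins were less uniform. Efna5, a second ephrin of the A class, had RAE2.0 signals of 474 in TEG3, 986 in OEC Lp and 356 in OEC Ep, but on U34A it was near the floor with 134, 149 and 24. Its log2 fold in OEC Lp over OEC Ep was 0.84 ± 0.398 and did not pass (limma adjusted p = 0.33). Efnb3, a transmembrane ephrin of the B class, was above the floor in OEC Lp alone, with 20 in TEG3, 369 in OEC Lp and 53 in OEC Ep. Efnb1, of the same class, had 647, 1356 and 853 with its brighter probe set, and Efna4 had 331, 156 and 173. OEC Lp thus held the highest signal of 4 of the 5 ephrins, and TEG3 that of Efna4.

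Of the 12 Eph receptor kinases, 7 passed on RAE2.0. Of these, 2 differed at least 2-fold between the highest and the lowest population, beside 36.4% of all genes that passed there. Both were highest in OEC Lp. Another 3, Epha3, Epha6 and Ephb6, were above the floor in 1 population alone, so that their folds have no upper limit. Ephb4, the receptor of ephrin-B2, had signals of 1034 in TEG3, 2519 in OEC Lp and 837 in OEC Ep. Epha4, which binds ephrins of both classes, had 4 probe sets that were all highest in OEC Lp and lowest in TEG3. Its brightest had 288 in TEG3, 1084 in OEC Lp and 534 in OEC Ep. Ephb3 and Epha3, tested on both types, had log2 folds from -0.16 to 0.35 and adjusted p-values from 0.686 to 0.959 by limma. Epha2 had 661, 540 and 455, while Epha6 and Ephb6 exceeded the floor in TEG3 alone, with 187 and 247.

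All 7 class 3 semaphorins passed on RAE2.0, and all 7 differed at least 2-fold there between the highest and the lowest population. Of the 53 guidance genes 32 did so, beside 36.4% of all genes that passed on RAE2.0. OEC Lp was at least 18.1-fold below OEC Ep for Sema3b, at least 5.90-fold for Sema3g as the mean of 2 probe sets, and 3.20-fold for Sema3e, and 16.6-fold above it for Sema3d. Sema3a was above the floor in OEC Lp on both types and in OEC Ep on neither. These values are from 1 array per population unless stated.

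Sema3b, a secreted ligand of neuropilins, had signals of 265 in TEG3 and 16 in OEC Lp, against 3049 in OEC Ep. Sema3g, another ligand of Nrp2, had 246 in TEG3 and 137 in OEC Lp, against 3627 in OEC Ep, with its brighter probe set. Sema3e, which binds Plxnd1 without a neuropilin, had 847 in TEG3 and 1127 in OEC Lp, against 3601 in OEC Ep. All 3 genes were highest in OEC Ep, while TEG3 was above OEC Lp for Sema3b and Sema3g and below it for Sema3e. The dimmer Sema3g probe set had 153, 103 and 271, with TEG3 and OEC Lp under the floor, so the folds of this gene depend on the floor. Sema3c, another secreted ligand of the class, had 9762 in TEG3 and 14963 in OEC Lp, against 20822 in OEC Ep, a 2.13-fold and a 1.39-fold difference.

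Sema3d, a secreted cue of the same class, ran the other way, with 1086 in TEG3 and 3458 in OEC Lp, against 208 in OEC Ep, so that TEG3 was 5.22-fold higher than OEC Ep. Sema3f, the main ligand of Nrp2 in the repulsion of axons, had probe sets with 258 and 302 in TEG3, 549 and 504 in OEC Lp, and 251 and 6 in OEC Ep. Sema3a, a strong repellent of sensory axons that acts through Nrp1, had 349 in TEG3, 373 in OEC Lp and 16 in OEC Ep on RAE2.0. On U34A it had 14 in TEG3, 398 in OEC Lp and 24 in OEC Ep. The types thus matched for OEC Lp and OEC Ep and differed for TEG3. The log2 fold of Sema3a in OEC Lp over OEC Ep was 1.39 ± 0.441 (limma adjusted p = 0.166), and in TEG3 over OEC Ep 0.53 ± 0.441 (adjusted p = 0.536), so neither passed.

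**Figure D2:**
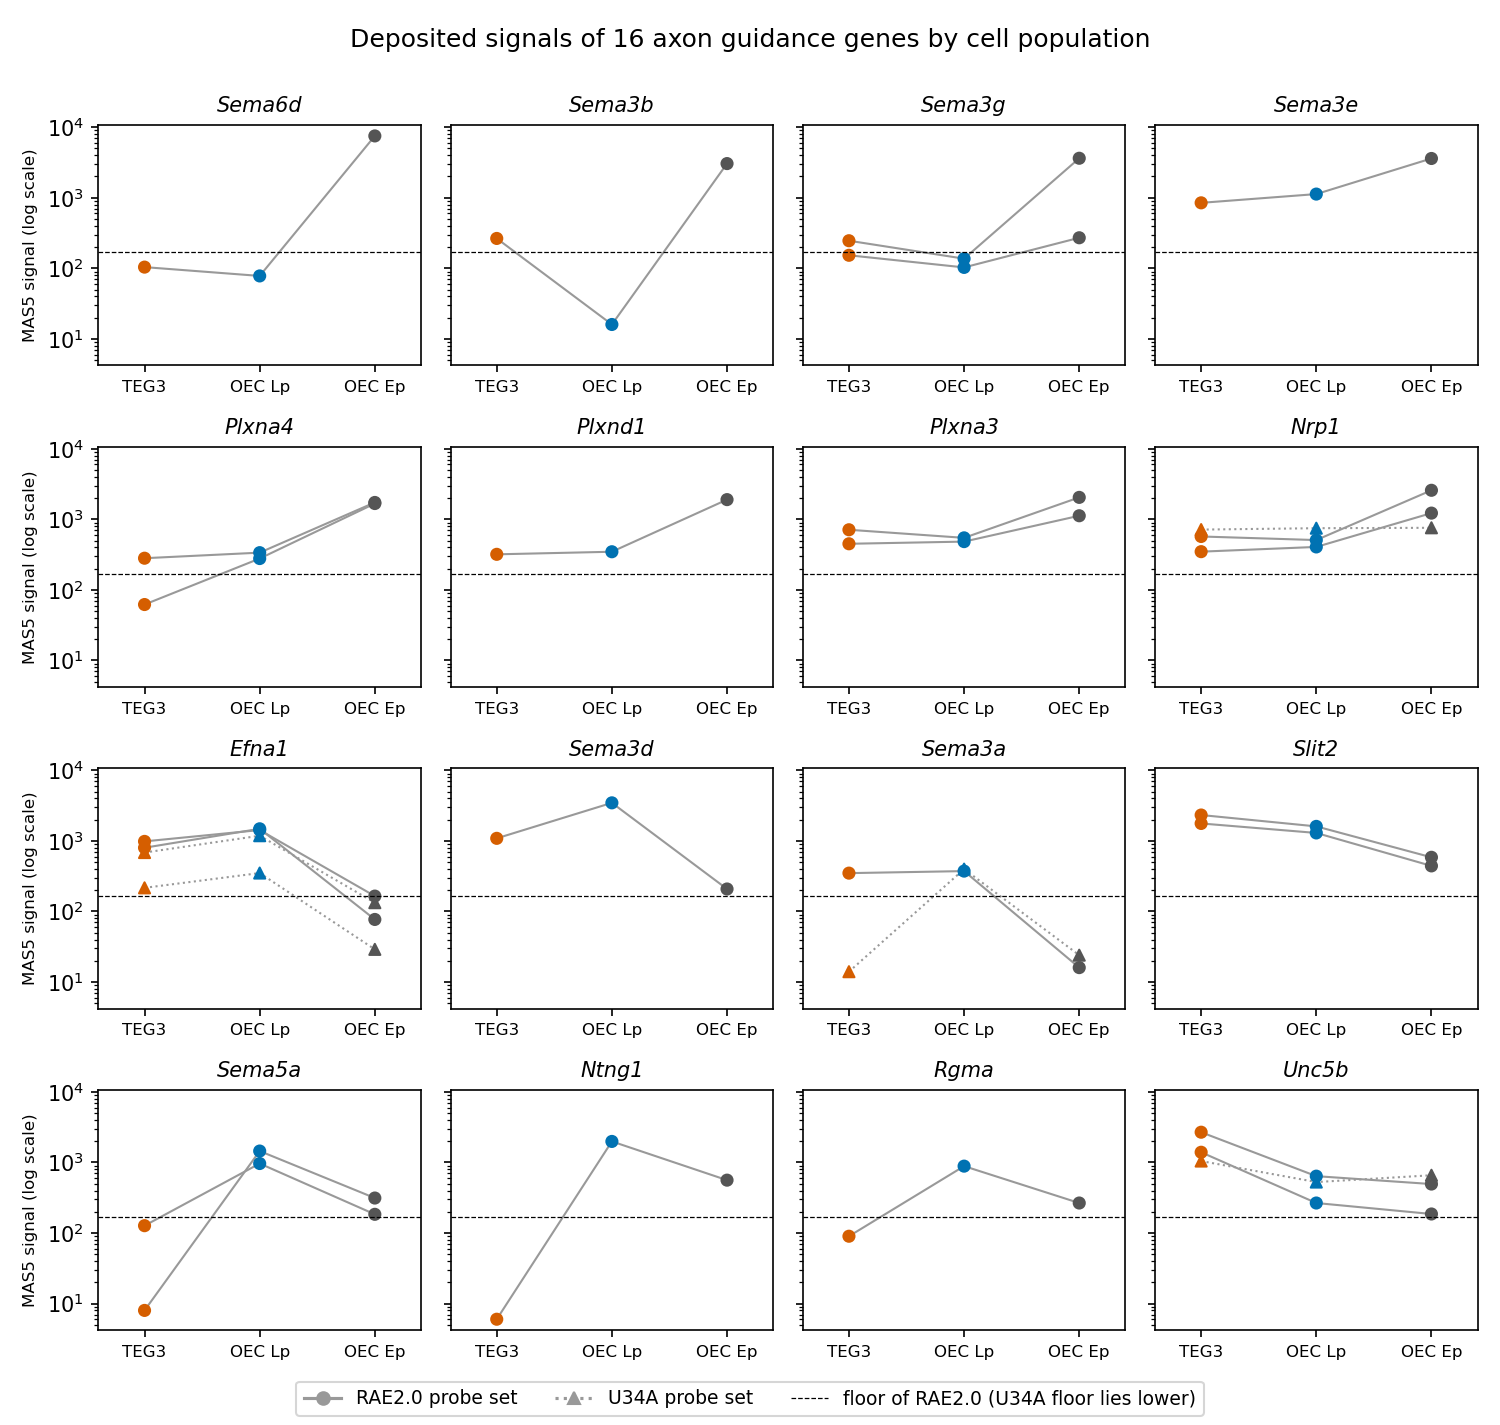
Deposited MAS5 signals (log axis) of 16 axon guidance genes, chosen after their values were seen, in TEG3, OEC Lp and OEC Ep. Each line joins the 3 signals of 1 probe set that passed the floor (circles RAE2.0, triangles U34A), and the dashed line is the RAE2.0 floor of 168. The top 2 rows hold genes whose RAE2.0 signals were highest in OEC Ep, such as Sema6d with 7514, and the third row genes that were lowest in OEC Ep there. In the last row Sema5a, Ntng1 and Rgma are highest in OEC Lp and Unc5b in TEG3.

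Several plexins, the signalling receptors of these ligands, had lower signals in the same populations. Plxna4, a receptor partner of neuropilins for Sema3a and also a receptor of class 6 semaphorins, had probe sets with 281 and 62 in TEG3 and 337 and 278 in OEC Lp, against 1733 and 1673 in OEC Ep, which puts TEG3 7.84-fold (with 1 probe set at the floor) and OEC Lp 5.56-fold below OEC Ep. Plxnd1, the receptor of Sema3e, had 319 in TEG3 and 347 in OEC Lp, against 1901 in OEC Ep. Plxna3, which transmits Sema3f signals with Nrp2, had 711 and 450 in TEG3 and 546 and 483 in OEC Lp, against 2045 and 1123 in OEC Ep. The ligand Sema3e and its receptor gene Plxnd1 were therefore both lower in TEG3 (by 4.25-fold and 5.96-fold) and in OEC Lp (by 3.20-fold and 5.48-fold). Not every plexin followed: Plxnb2 had 7206 in TEG3 and 10554 in OEC Lp, against 5378 in OEC Ep, and Plxnb1 and Plxna1 differed by at most 1.33-fold. Plxna2 was highest in OEC Lp, with 142 in TEG3, 990 in OEC Lp and 290 in OEC Ep by its brightest probe set.

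For Nrp1, a neuropilin and thus a binding subunit for class 3 semaphorins, the array types disagreed. On RAE2.0, Nrp1 had probe sets with 571 and 348 in TEG3 and 508 and 406 in OEC Lp, against 2577 and 1224 in OEC Ep. On U34A, however, it had 715 in TEG3 and 748 in OEC Lp, against 758 in OEC Ep, although the U34A probe set and the dimmer RAE2.0 probe set are annotated to the same accession of the gene. Its log2 fold of -0.99 ± 0.553 in OEC Lp over OEC Ep did not pass (limma adjusted p = 0.411), nor did -1.04 in TEG3 over OEC Ep (adjusted p = 0.342). Nrp2, the second neuropilin, had 1591 in TEG3 and 1013 in OEC Lp, against 622 in OEC Ep, by the RAE2.0 probe set that passed. It was highest in TEG3 by this 1 probe set alone. The other RAE2.0 probe set had 19, 25 and 12 and the U34A probe set 55, 47 and 21 in the same order, all under the floor.

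Semaphorins of classes 4 to 6 are membrane proteins. Sema6d, a ligand of Plxna1 and Plxna4 whose upstream window held 4 GC boxes, was above the RAE2.0 floor in OEC Ep alone. It had 104 in TEG3 and 78 in OEC Lp, both under the floor, against 7514 in OEC Ep, and was at least 44.7-fold lower in each. Sema5a, whose extracellular part carries thrombospondin repeats, had 8 in TEG3, 1450 in OEC Lp and 313 in OEC Ep, and its other probe set that passed had 127, 965 and 184. OEC Lp was 4.93-fold higher than OEC Ep and at least 7.04-fold higher than TEG3. Sema4f had 453 in TEG3, 29 in OEC Lp and 222 in OEC Ep. Sema6c had 274, 470 and 233 in the same order. The other classes 4 and 6 genes that passed were Sema4a, Sema4b, Sema4g, Sema6a and Sema6b. They differed by 1.09-fold to 2.06-fold between the highest and the lowest population. The 2.06-fold of Sema6a is a mean over 4 probe sets, some at the floor, which hides larger differences. Its brightest had 218 in TEG3, 713 in OEC Lp and 1146 in OEC Ep, and another 176, 640 and 380. These probe sets disagreed on OEC Lp against OEC Ep. Sema4b, also on U34A, had log2 folds from -0.34 to 0.30 and adjusted p-values of 0.639 to 0.974 by limma.

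Over the 53 genes, 9 were at least 2-fold lower in both TEG3 and OEC Lp than in OEC Ep on RAE2.0, beside 6.99% of all 11542 genes there. They were Sema3b, Sema3e, Sema3g, Sema6d, Plxna3, Plxna4, Plxnd1, Nrp1 and Robo2, of which 8 are semaphorins or their receptors. These families were also a large part of the 53 genes, with 7 class 3 semaphorins, 9 of classes 4 to 6, and 9 plexins and neuropilins. On U34A Nrp1 showed no such difference, with log2 ratios to OEC Ep of -0.02 in OEC Lp and -0.08 in TEG3. Another 4 were at least 2-fold higher in both, Efna1, Sema3a, Sema3d and Slit2, beside 3.24%. OEC Lp was at least 2-fold above both other populations for 9 genes, beside 4.71%, and below both for 0, beside 2.68%. TEG3 was above both for 2, Sema4f and Unc5b, beside 5.17%, and below both for 2, Ntn1 and Ntng1, beside 2.64%. In the counts of genes lower or higher in both TEG3 and OEC Lp, the ratios share the OEC Ep array. In the other counts they share the array of the population that is set against both others. Each count is therefore decided by 1 array.

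**Figure D3:**
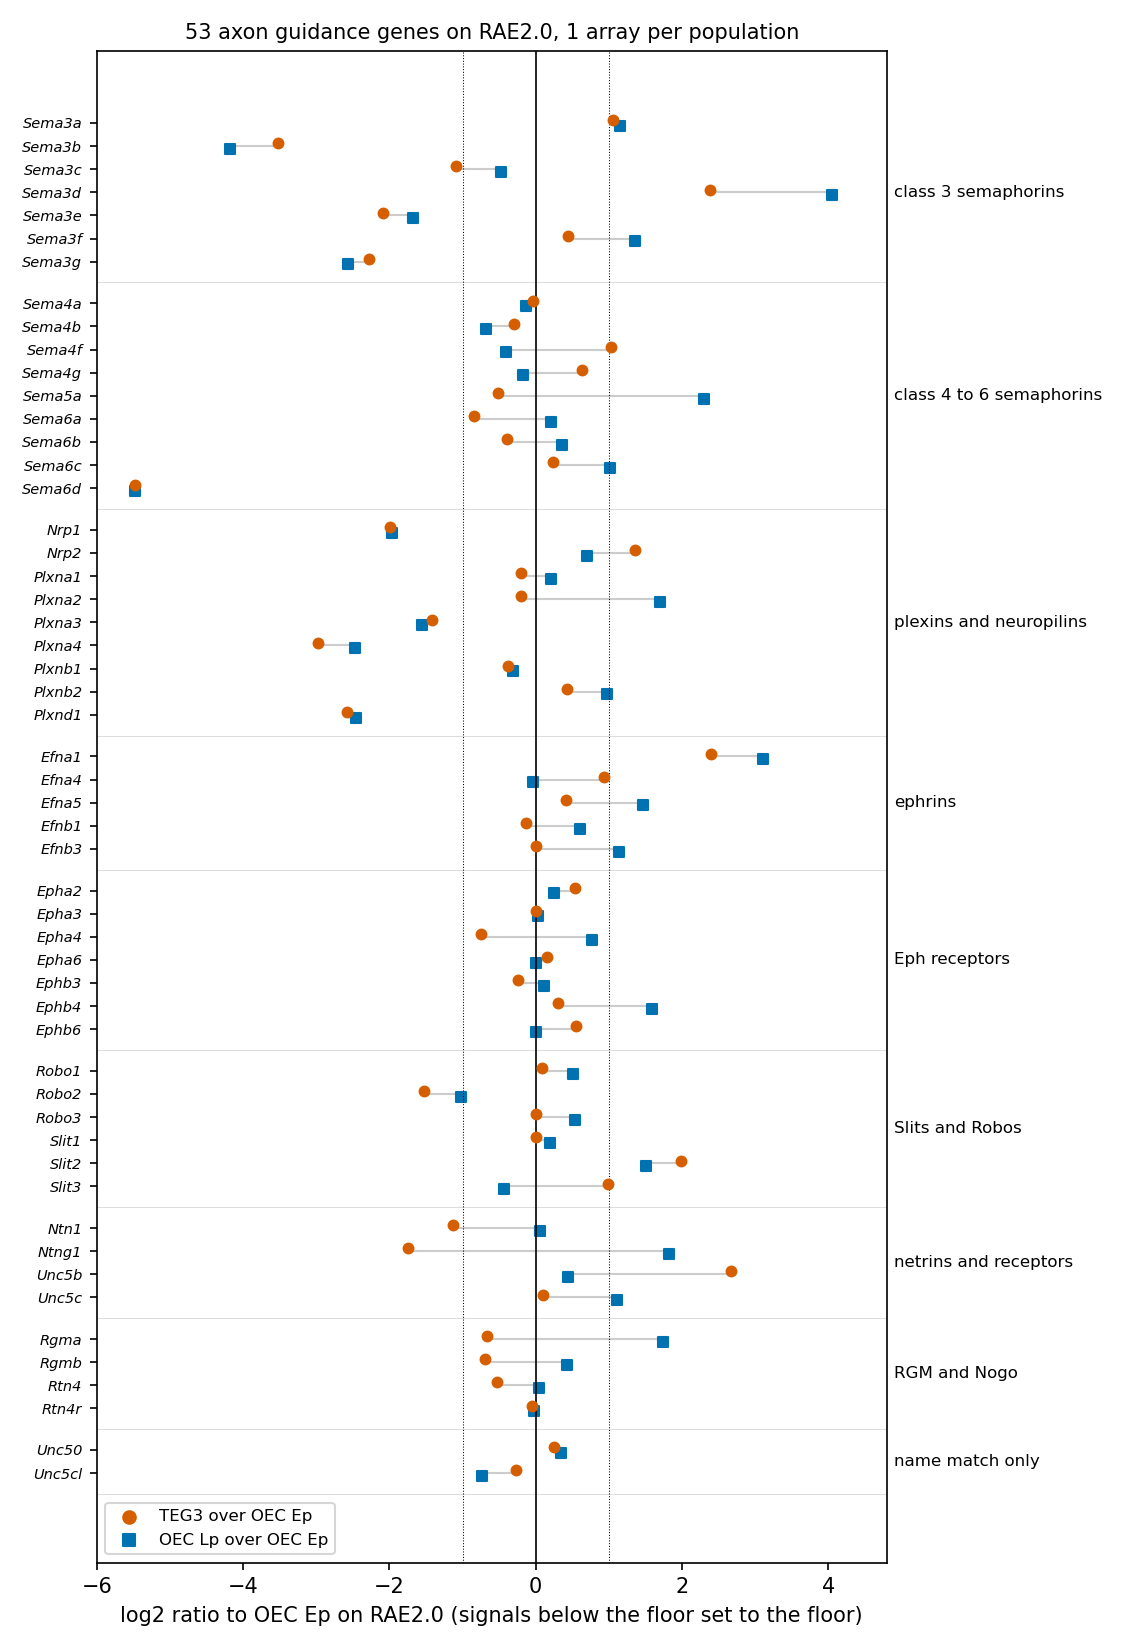
log2 ratios to OEC Ep on RAE2.0 of the 53 axon guidance genes that passed the floor (rows, by family), with 1 array per population. Circles are TEG3 over OEC Ep, squares OEC Lp over OEC Ep, and dotted lines mark 2-fold. Of the 9 genes with both ratios below -1, 7 are class 3 semaphorins, plexins or Nrp1. The 53 genes include 7 class 3 semaphorins and 9 plexins and neuropilins. Sema6d lies at -5.48 for both, and ephrins and Eph receptors lie near or above 0 for OEC Lp.

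Among the 42 genes measured on RAE2.0 and not on both types, 18 differed at least 2-fold between OEC Lp and OEC Ep, beside 19.6% of 8411 genes. Of these, 11 were higher and 7 lower in OEC Lp, beside 10.1% and 9.52%. For TEG3 and OEC Ep the count was 14, beside 21.9%, with 4 higher and 10 lower in TEG3, beside 12.6% and 9.34%. TEG3 and OEC Lp also differed for 14, beside 17.8%, with 2 higher and 12 lower in TEG3, beside 9.74% and 8.03%. In shares of the 42 genes, the counts higher in OEC Lp over OEC Ep and lower in TEG3 over OEC Lp were 26.2% and 28.6%. Between the highest and the lowest population, 10 of the 42 differed at least 4-fold, beside 9.15%.

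Slits and their Robo receptors passed in all 6 cases on RAE2.0. Slit2, the secreted repellent of commissural and olfactory axons, had probe sets with 2324 and 1765 in TEG3 and 1604 and 1295 in OEC Lp, against 585 and 442 in OEC Ep, so that TEG3 was 3.98-fold and OEC Lp 2.83-fold above OEC Ep. Robo2, a Slit receptor, ran the other way on RAE2.0, where its brightest probe set had 204 in TEG3 and 284 in OEC Lp, against 1478 in OEC Ep. Its other probe sets had 221 and 59 in TEG3 and 387 and 197 in OEC Lp, against 443 and 274 in OEC Ep, much smaller differences, and the mean over the 3 put OEC Lp 2.02-fold below OEC Ep. On U34A Robo2 barely passed, with 49, 50 and 142, and its log2 folds of -0.58 and -0.83 in OEC Lp and TEG3 over OEC Ep did not pass (limma adjusted p = 0.509 and 0.31). Slit3 had 448 in TEG3, 43 in OEC Lp and 226 in OEC Ep on RAE2.0, and was under the floor on U34A. Robo1 had 349, 469 and 328 on RAE2.0, and Robo3 and Slit1 were above the floor there in OEC Lp alone, with 244 and 193. Slit1 had log2 folds from -0.11 to 0.22 in the fit (adjusted p from 0.833 to 0.897).

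Netrin receptors of the Unc5 family mediate repulsion from netrin. Unc5b had RAE2.0 signals of 2680 and 1394 in TEG3, 639 and 266 in OEC Lp, and 494 and 186 in OEC Ep. On U34A it had 1046 in TEG3, 527 in OEC Lp and 658 in OEC Ep. TEG3 was highest on all 3 probe sets, but the size differed between the types and limma called neither its log2 fold over OEC Ep, 1.67 ± 0.517 (adjusted p = 0.148), nor that over OEC Lp, 1.61 ± 0.517 (adjusted p = 0.236). Unc5c had 235 in TEG3, 441 in OEC Lp and 205 in OEC Ep by its brighter probe set. Ntn1, the secreted ligand, had 171 in TEG3, 854 in OEC Lp and 815 in OEC Ep by its brightest probe set. Its other probe set that passed did so in OEC Lp alone, with 113, 173 and 24, and shows no such difference, so that TEG3 was 2.18-fold below OEC Ep in the mean of both. Ntng1, a netrin-G that is anchored to the membrane and is not a ligand of Dcc, had 6 in TEG3, 1984 in OEC Lp and 561 in OEC Ep, at least 11.8-fold lower in TEG3 than in OEC Lp.

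Of the cues that limit axon growth, Rgma, a repulsive guidance molecule read by neogenin, had 90 in TEG3, 886 in OEC Lp and 266 in OEC Ep, and OEC Lp was 3.33-fold above OEC Ep. Its relative Rgmb had 745 and 558 in TEG3, 1655 and 1172 in OEC Lp, and 748 and 1442 in OEC Ep, so its probe sets disagreed on OEC Lp against OEC Ep. Rtn4, the gene of Nogo, had a level of 6146 in TEG3 and 9168 in OEC Lp, against 8872 in OEC Ep over 2 probe sets. Its receptor gene Rtn4r was near the floor in all 3 populations, with levels of 180, 184 and 186. Rgma thus varied and Nogo did not reach a 2-fold difference. The rule on symbols also took in Unc50 and Unc5cl, which are not netrin receptors. Unc50 had limma log2 folds from -0.25 to 0.43 and adjusted p-values from 0.497 to 0.771, and Unc5cl had 232 in TEG3, 129 in OEC Lp and 280 in OEC Ep.

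Genes that work beside these receptors were looked up from a list of 67 co-receptors, other ligands and cytoplasmic effectors, of which 64 were on the arrays and 31 on both types above the floor. In OEC Lp over OEC Ep 3 of the 31 fell and 0 rose, beside 4.02% and 2.11% of all genes. L1cam, an adhesion molecule that is part of the Sema3a receptor complex, fell by a fitted 16.7-fold (log2 fold -4.06 ± 0.388, limma adjusted p = 0.00879). On RAE2.0 L1cam was at the floor in OEC Lp and TEG3, against 3253 in OEC Ep, so its fitted folds rest in part on bounds. L1cam and Ngfr also belong to the list of OEC and Schwann cell markers above, so they are no separate observation. The tyrosine kinase gene Fyn, which acts downstream of plexins and ephrins, had a log2 fold of -2.25 (adjusted p = 0.0384), and the heparan sulfate proteoglycan gene Gpc1, which binds Slit, -2.12 (adjusted p = 0.0491). In TEG3 over OEC Ep L1cam alone passed, 1 of 31 beside 4.34%, with -3.67 ± 0.388 (adjusted p = 0.0114), and in TEG3 over OEC Lp 0 of 31 passed. Sdc1, a syndecan, had log2 folds of 1.43 in OEC Lp and 1.64 in TEG3 over OEC Ep, neither of which was called (adjusted p = 0.0759 and 0.058). Not called in TEG3 over OEC Ep either were Gpc1, with -2.11 (limma adjusted p = 0.058), and the growth cone gene Gap43, with -1.93 (adjusted p = 0.0797). Ngfr had log2 folds of -4.26 ± 1.06 in OEC Lp and -4.02 ± 1.06 in TEG3 over OEC Ep. It was at least 2-fold lower on both array types but not called (limma adjusted p = 0.0912 and 0.11). With each array left out in turn, which leaves 1 array in a population, most calls over all genes were lost. L1cam in OEC Lp passed in 2 of these 6 fits, and its call in TEG3 and those of Fyn and Gpc1 in 0. L1cam kept log2 folds between -4.47 and -3.66 in OEC Lp and between -4.17 and -3.17 in TEG3 in those fits. The list's median log2 fold was -0.27 in OEC Lp and -0.24 in TEG3 over OEC Ep and 0.01 in TEG3 over OEC Lp, beside 0.11, 0.04 and -0.01 over all genes. Of 27 genes of the list on RAE2.0 alone, 2 were at least 2-fold higher and 4 lower in OEC Lp than in OEC Ep, beside 10.1% and 9.52% of all such genes. TEG3 had 4 higher and 4 lower against OEC Ep, beside 12.6% and 9.34%, and 4 higher and 2 lower against OEC Lp, beside 9.74% and 8.03%.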

How the data were processed

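Per the submitters' processing notes, the authors made the deposited tables with MAS5, whose values are intensities on a linear scale, here in whole numbers without detection calls. Per the labels' design text, Microarray Suite was also used to filter inaccurate probe sets, with no setting given. Within each array type the 3 arrays were brought to one 2% trimmed mean. Scaled signals were floored at the 40th percentile of their type. Probe sets above it on at least 1 array were averaged per gene as log2 values. Signals quoted are as deposited, and levels are these averages on the signal scale. Gene symbols came from the platform annotation, with a single symbol for 7018 U34A and 20832 RAE2.0 probe sets, several for 308 and 436 and none for 1473 and 9831.

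For genes above the floor on both types, limma 3.58.1 (R 4.3.3) fitted population and array type. Array type equals the replicate number and thus serves as replicate block (2 residual and 3.56 prior degrees of freedom). p-values were adjusted by Benjamini-Hochberg over 3131 genes and called under 0.05. The procedure was tested on simulated data. Described in full are genes on both types and those that differed at least 4-fold between populations on RAE2.0, and other members more briefly, chosen for mention after their values were seen. The members and lists were chosen with earlier results of these data known.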

Additional observations from a re-analysis of the deposited data

How the results depend on the processing

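The calls on Efna1 depend on the fit. The count of guidance genes called was 0 in OEC Lp over OEC Ep, in place of 1, in 4 settings. These were no filter on dim probe sets, genes above the floor on all 3 arrays of the type (3 guidance genes left, Efna1 not among them), the 4 arrays of the compared populations alone, and no replicate block. Of all genes, limma called 1 of 4582, 77 of 2093, 41 of 3131 and 0 of 3131 in these settings. With no replicate block, 193 genes had an unadjusted p under 0.05. In TEG3 over OEC Ep the count was 0, in place of 1, in the same 4 settings, where limma called 1, 86, 0 and 0 of all genes. It was also 0 without a floor and with a mean-variance trend, where 11 and 149 of 3131 genes were called. Leaving out each array also lost the calls on Efna1, as it did most calls over all genes. Each such fit leaves 1 array in a population. Without a TEG3 array, OEC Lp and OEC Ep kept all their arrays, and the log2 fold of Efna1 between them stayed at 2.71. The cause of the lost calls was not tested. TEG3 over OEC Lp stayed at 0 throughout. The log2 fold of Efna1 ran from 2.68 to 3.53 in OEC Lp and from 1.98 to 2.80 in TEG3 over OEC Ep across the settings that kept all arrays. Counts of genes at least 2-fold different on RAE2.0 alone stayed within 1.5 times of 18, 14 and 14 in the settings run. Leaving out Unc50 and Unc5cl, an alternative chosen after seeing the data, changed no count.

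No log2 fold that turned its sign was called in any fit. With no floor and with the floor at the 20th percentile, Epha3 had 1.51 and 0.55 in OEC Lp over OEC Ep and -0.35 and -0.11 in TEG3 over OEC Lp, Sema4b 1.11 and 0.86 in TEG3 over OEC Ep, and Slit1 0.28 in both for OEC Lp and -0.30 in both for TEG3 over OEC Ep and -0.58 in both for TEG3 over OEC Lp. With the brightest probe set, Slit1 had 0.022 in OEC Lp over OEC Ep and Nrp1 0.052 in TEG3 over OEC Lp, and with quantile normalization Nrp1 had 0.062 there and Unc5b -0.0057 in OEC Lp over OEC Ep. Leaving out each array in turn gave values on both sides of 0, for TEG3 over OEC Ep, from -0.16 to 0.64 for Efna5, -0.099 to 0.40 for Epha3, -0.26 to 0.96 for Ephb3, -0.12 to 1.18 for Sema3a, -0.34 to 0.26 for Sema4b and -0.16 to 0.38 for Slit1. For OEC Lp over OEC Ep they ran from -0.44 to 0.11 for Epha3, -0.29 to 0.41 for Ephb3, -0.48 to 0.26 for Slit1 and -0.63 to 0.75 for Unc5b, and for TEG3 over OEC Lp from -0.32 to 0.90 for Ephb3, -0.54 to 0.45 for Nrp1, -0.72 to 0.22 for Robo2 and -0.15 to 0.59 for Slit1. The cause was not tested. Signals near the floor and 1 array per population and type limit all of these values.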
